A study of Mus musculus with 2 samples.

Results

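Open chromatin regions that lay inside genes, away from both gene ends, and that were listed in the control library but not in the Brd9 knockout library, numbered 3587 of 28403 regions on the autosomes. They were found by merging the peak lists of both libraries wherever peaks overlapped by at least 1 bp and keeping the merged regions that held control peaks alone. A kept region had to overlap the span of a gene of any type in the RefSeq annotation of the mm10 genome build and to lie more than 1 kb from every gene end. The regions were chosen by the readout itself, a peak in the control list and none in the knockout list, so their control values are descriptions and no difference between the libraries can be supported with them. Which of them fall in exons, introns or untranslated regions was not analysed here.

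Both libraries were made by ATAC-seq, in which a transposase cuts and tags accessible DNA, from C57BL/6 mouse fetal liver at E14.5. Sorted cells lacked lineage markers and carried c-Kit, the receptor for stem cell factor, with 150000 cells in each library. The control library (replicate 1) came from CD45.2(+) Brd9fl/fl cells and the knockout library (replicate 2) from CD45.2(+) Vav1-iCre Brd9fl/fl cells, so both carried the floxed Brd9 alleles and the knockout alone carried the recombinase. Vav1 regulatory DNA drives Cre in blood cells, and in which cells Brd9 was deleted was not measured here. The sources used here do not give the number of embryos. With 1 library in each group there is no replicate error and no test between genotypes, and genotype and library cannot be told apart.

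BRD9 is a bromodomain protein that recognises acetylated histones and belongs to the non-canonical BAF complex, one of the ATP-dependent remodellers that move and evict nucleosomes. Accessible sites within genes and far from their ends are often enhancers, which are bound by transcription factors of the cell type, while others are alternative promoters. In blood progenitors, genes such as Runx1, Kit and Gfi1b are known to be controlled by enhancers that lie within or near the gene.

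The control list held 25330 peaks and the knockout list 22348, with a relative depth of 0.640 (knockout over control), taken from the lowest background that the peak caller applied in each library. The number of reads covering each peak's summit, called summit reads here, was recovered from the deposited values. Exact Poisson and Clopper-Pearson 95% intervals are given throughout, and they cover counting error only, since reads lacking molecular identifiers cannot be taken as independent molecules. Of 6 stem and progenitor markers, 3 had a peak at a gene end in each library, with 220 summit reads summed in the control and 120 in the knockout, and Ptprc, Cd34 and Gata2 were at 0. Of 5 erythroid markers, 4 had one in each library, with sums of 902 and 546 reads, and Gata1, which lies on the X chromosome outside the autosomes used, was at 0. Hepatocyte markers had 1 of 5 in each library (Apoa1, with 26 and 19 reads; Alb, Afp, Ttr and Hnf4a at 0), macrophage markers 1 of 4 (12 and 21 reads), endothelial markers 1 of 4 (15 and 17 reads), stromal markers 1 of 4 (29 and 19 reads), and B and T cell markers 0 of 4. The part of such cells in the results was not tested, and fewer cells with an open site cannot be told apart from a site that is less open in each cell.

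A few of the control-only regions held an annotated transcription start, and the sequence upstream of 6 such starts is shown because these are the sites where a control-only region coincides with an alternative promoter. The first is from the region with the highest deposited −log10 q among those holding a start, and the other 5 have the highest values among those with a start within 50 bp of the summit; the choice was made after the values were seen. Each line gives the 250 bases before the start, 5′ to 3′ on the gene's strand, from RefSeq (GRCm38.p6, the assembly of mm10). Capitals mark 3 motifs on both strands, with no overlap between them: the CCAAT box, which reads ATTGG on the opposite strand, the GC box GGGCGG, which reads CCGCCC there, and the GATA factor motif GATAA, which reads TTATC there.
Sh2d3c: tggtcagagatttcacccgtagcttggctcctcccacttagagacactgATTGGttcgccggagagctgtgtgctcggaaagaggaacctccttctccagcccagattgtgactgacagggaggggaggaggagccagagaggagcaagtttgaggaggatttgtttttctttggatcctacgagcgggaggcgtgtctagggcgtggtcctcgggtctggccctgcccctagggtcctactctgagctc
Slc29a1: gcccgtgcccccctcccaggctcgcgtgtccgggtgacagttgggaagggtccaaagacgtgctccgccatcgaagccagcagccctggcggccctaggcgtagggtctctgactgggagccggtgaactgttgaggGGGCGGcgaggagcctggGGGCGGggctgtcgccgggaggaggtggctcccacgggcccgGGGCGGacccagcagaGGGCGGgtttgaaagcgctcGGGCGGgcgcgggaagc
Per1: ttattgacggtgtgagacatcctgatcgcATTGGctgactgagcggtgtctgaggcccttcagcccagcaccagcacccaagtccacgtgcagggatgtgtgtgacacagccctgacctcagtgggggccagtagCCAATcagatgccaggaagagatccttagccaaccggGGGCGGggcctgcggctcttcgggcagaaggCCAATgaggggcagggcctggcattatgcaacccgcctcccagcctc
Zfp661: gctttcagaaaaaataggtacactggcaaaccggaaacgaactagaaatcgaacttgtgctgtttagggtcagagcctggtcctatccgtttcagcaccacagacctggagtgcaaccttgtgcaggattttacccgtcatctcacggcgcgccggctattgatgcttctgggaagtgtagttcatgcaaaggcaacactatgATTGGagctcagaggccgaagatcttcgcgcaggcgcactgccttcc
Ssbp3: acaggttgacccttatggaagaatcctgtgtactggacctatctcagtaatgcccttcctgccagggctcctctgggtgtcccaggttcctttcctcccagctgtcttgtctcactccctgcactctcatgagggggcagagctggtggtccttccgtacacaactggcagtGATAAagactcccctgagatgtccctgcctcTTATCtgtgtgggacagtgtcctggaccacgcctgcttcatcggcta
Shisa5: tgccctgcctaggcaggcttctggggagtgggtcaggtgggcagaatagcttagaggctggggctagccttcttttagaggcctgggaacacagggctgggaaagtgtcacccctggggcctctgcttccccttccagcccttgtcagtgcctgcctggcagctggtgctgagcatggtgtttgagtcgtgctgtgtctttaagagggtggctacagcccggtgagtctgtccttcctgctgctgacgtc

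The Sh2d3c sequence lies at chr2:32727439-32727688 on the plus strand, in the gene of an SH2-domain adaptor protein. It fell wholly within a control-only region of 872 bp with 59 summit reads (45 to 76), whose summit was 156 bp upstream of the start. Slc29a1, which encodes a nucleoside transporter, is at chr17:45595531-45595780 on the minus strand and held GGGCGG 5 times. Its region had 87 summit reads over a background of 18.7, and a knockout peak lay 865 bp away. Only 69 of these 250 bases fell within the region, so some of the marked motifs lie outside it. Per1, a core repressor of the circadian clock, is at chr11:69098699-69098948 on the plus strand and held CCAAT 3 times and GGGCGG 1 time. Its region had 168 summit reads (144 to 195) but a background of 67.2 reads, so the deposited fold was 2.48. That region held 188 of the 250 bases, and the ATTGG nearest the 5′ end lies outside it. Zfp661, a zinc finger gene, is at chr2:127584678-127584927 on the minus strand, and its region had 45 summit reads. Ssbp3, which encodes a partner of the LDB1 adaptor, is at chr4:106922935-106923184 on the plus strand and held GATAA 2 times, on opposite strands, within a region of 36 summit reads. Shisa5, a p53-responsive gene of the endoplasmic reticulum, is at chr9:109054616-109054865 on the plus strand, in a region of 59 summit reads, and no motif searched was found in its 250 bases.

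In all, 78 control-only regions (2.17%, 1.72 to 2.71) held 84 annotated starts, and 22 of these regions had a start within 50 bp of the summit. Among regions inside genes that were listed in both libraries, called shared here, 680 of 5520 held one (12.3%, 11.5 to 13.2), and among knockout-only regions 40 of 1942 (2.06%, 1.48 to 2.79). The share was lower than in shared regions in each bin of control reads as well. From 22 to 39 control reads it was 3.21% (1.97 to 4.91) of control-only against 6.23% (5.04 to 7.60) of shared regions, and from 40 reads on it was 6.92% (3.73 to 11.5) against 20.2% (18.7 to 21.7). GATAA stood in 20.2% of the sequences upstream of the starts in control-only regions, in 17.9% of those in shared regions and in 22.6% of all 32851 promoters in the table. CCAAT stood in 39.3%, 34.4% and 33.9% in the same order, and GGGCGG in 41.7%, 57.8% and 32.7%. The TATA box TATAAA, whose opposite strand reads TTTATA, stood in 7.14%, 4.81% and 12.4%. The ETS factor motif AGGAAGT, with ACTTCCT opposite, stood in 3.57%, 7.52% and 7.69%, and the AP-1 motif TGACTCA, with TGAGTCA opposite, in 3.57%, 4.07% and 4.46%. None of these last 3 motifs stood in the 6 sequences shown. The median number of CG pairs was 11, 15 and 6 and the median GC content 57.6%, 60.4% and 52.4%. The starts in control-only regions thus lay between those in shared regions and all promoters in GGGCGG, CG pairs and GC content.

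Regions inside genes were listed in the control alone more often than regions at gene ends. Of 11049 regions inside genes, 3587 (32.5%, 31.6 to 33.3) were control-only, 5520 (49.96%) were shared and 1942 (17.6%) were knockout-only. The background over all autosomal regions was 23.5% control-only, and that over regions inside genes is the same 32.5%. At gene ends 1378 of 12444 regions (11.1%, 10.5 to 11.6) were control-only, and between genes 1702 of 4910 (34.7%, 33.3 to 36.0). Seen from the other side, 53.8% (52.6 to 55.0) of the 6667 control-only regions lay inside genes, against 30.6% (30.0 to 31.3) of shared and 52.3% (50.7 to 53.9) of knockout-only regions. Regions listed in a single library were thus inside genes at a like share whichever library listed them.

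Most of the control-only regions were weak. Their summit reads ran from 7 to 172 with a median of 14 and quartiles of 11 and 21, against a control median of 37 in shared regions inside genes. Multiplied by the relative depth, the control reads came to a median of 8.96, and in 1858 regions (51.8%, 50.1 to 53.4) they fell below 9, the 10th percentile of summit reads over all knockout peaks. In 543 regions (15.1%, 13.98 to 16.4) they fell below 6, the lowest number of summit reads that any knockout peak had. Shared regions inside genes had as few control reads in 90 cases for the lower limit and 598 for the higher one, beside the 543 and 1858 control-only regions. They count as shared only because the knockout list held a peak there. How much the depth contributed to the absence of the control-only ones was not tested. The regions were also narrow, with a median width of 554 bp against 895 bp in shared and 506 bp in knockout-only regions inside genes. The local background was at the lowest value of the library in 1465 regions (40.8%, 39.2 to 42.5), against 510 shared regions (9.24%, 8.49 to 10.03). Each control-only region held a single control peak.

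The share of control regions inside genes that the knockout list lacked went down as control reads went up. It was 84.4% (82.0 to 86.7) at up to 10 reads, 69.8% (67.4 to 72.2) at 11 to 14, 52.7% (50.3 to 55.0) at 15 to 21, 30.2% (28.2 to 32.2) at 22 to 39 and 6.62% (5.73 to 7.59) at 40 and over. Regions between genes had 84.6%, 66.0%, 52.999%, 25.6% and 8.74% in the same bins. Gene ends had 77.5%, 59.1%, 39.1%, 16.8% and 1.56%, with an interval that lay below that of regions inside genes in each bin. So within each bin regions inside genes were lacking from the knockout list more often than gene ends and at shares near those between genes. The bins match reads only coarsely, and the bin of 40 and over has no upper limit. Control-only regions were also narrower than shared regions inside genes in each bin, with medians from 489 to 621 bp against 727.5 to 976 bp.

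**Figure D1:**
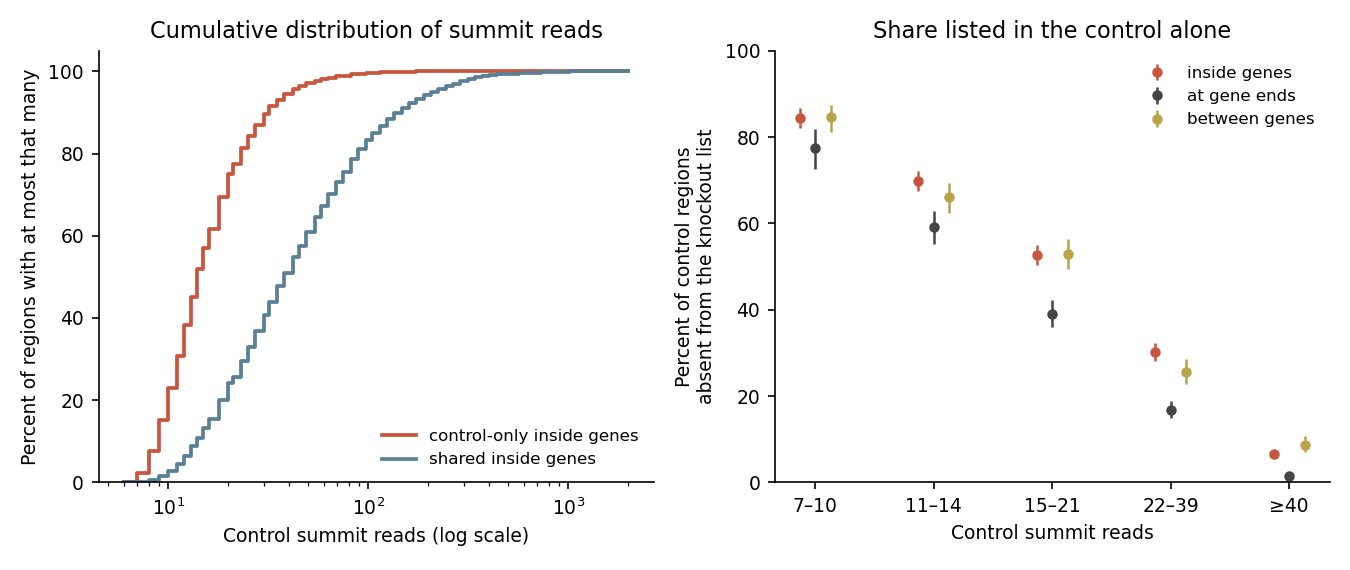
The left panel plots the percent of regions (vertical) with at most a given number of control summit reads (horizontal, log scale) for control-only and shared regions inside genes. The right panel plots the percent of control regions absent from the knockout list (vertical, with 95% Clopper-Pearson intervals) by bin of control summit reads for regions inside genes, at gene ends and between genes; inside genes it goes from 84.4% to 6.62%.

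A minority of the regions were strong. At least 20 summit reads were reached by 994 regions, at least 40 by 188 (5.24%, 4.53 to 6.02), at least 60 by 63, at least 80 by 29 and at least 100 by 15. The 188 regions with 40 or more reads were 573 bp wide at the median, with a median deposited fold of 5.13, while the 2653 shared regions with as many control reads had 976 bp and 10.3. Their median background was 9.45 reads against 7.29. A shared region lay within 5000 bp of 124 of the 188 (66.0%, 58.7 to 72.7). The strongest by reads were thus often narrow peaks over a raised local background rather than the tallest over their surroundings. The largest read number of all, 172 at Xpo1, which encodes the main nuclear export receptor, stood over a background of 78.8 (this gene was chosen after its values were seen).

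Ranked by the deposited −log10 q, the first region lay in Caskin2, a gene for a scaffold protein. It is at chr11:115804875-115805496 (mm10), 5842 bp from the nearest gene end, and had 135 summit reads (113 to 160) over a background of 9.18, a deposited fold of 13.4 and a −log10 q of 102.3. Scaled by the relative depth this corresponds to 86.5 reads, and the nearest knockout peak was 7996 bp away. The shared region at an end of Caskin2 had 272 control and 228 knockout reads. Knockout over control reads, divided by the relative depth, give a scaled ratio of 1.309 (exact 95% interval 1.09 to 1.57). The gene end was therefore listed in both libraries, with more knockout reads than the depth alone gives, while the region inside the gene was listed in the control only.

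Protein-coding hosts of the next regions serve varied functions. Wipi2, whose product binds phosphoinositides at forming autophagosomes, held a region of 79 reads (63 to 98) at chr5:142637718-142638358, with a fold of 15.1. Ulk1, the kinase that starts autophagy, held one of 117 reads (97 to 140) at chr5:110808088-110808790, over a background of 23.9 and only 1025 bp from a knockout peak. At Ulk1 a site listed in both libraries lay 1012 bp away. Coro1c, an actin-binding coronin, held 87 reads (70 to 107) at chr5:113901543-113902624, which at 1082 bp was the widest of the 20. Arel1, a ubiquitin ligase that inhibits apoptosis, held 77 reads (61 to 96) at chr12:84962533-84963102. Trim17, another ubiquitin ligase, held 113 reads (93 to 136) at chr11:58959885-58960408, and Plekho2, a pleckstrin homology domain protein, 112 reads (92 to 135) at chr9:65574923-65575743. The regions of Trim17 and Plekho2 stood over backgrounds of 14.1 and 15.5, higher than the 4.38 at Arel1.

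Among the others of the 20, Mef2c, a transcription factor of muscle, lymphoid and myeloid cells, held 53 reads (40 to 69) at chr13:83571981-83572572, 68.2 kb from the gene's start. Sgms1, which encodes sphingomyelin synthase, held 54 reads at chr19:32221976-32222743, and Borcs5, a subunit of the complex that positions lysosomes, 53 at chr6:134677872-134678525. Coq8b, of coenzyme Q synthesis, held 95 reads, Pde6d, a carrier of prenylated proteins, 60 and Ctsf, the lysosomal protease cathepsin F, 55. Ccdc171, whose region had 57 reads and a fold of 14.6, held 4 control-only regions in all. Long noncoding RNA genes held 5 of the 20, namely Gm29906 with 80 reads, Zmiz1os1 with 99, 1700029J03Rik with 65, Gm35712 with 61 and 1110020A21Rik with 66. Gm29906 had the highest deposited fold of all the control-only regions inside genes, 17.4, and the nearest knockout peak was 192535 bp away. In each of the 20 the scaled control level, from 33.9 to 86.5 reads, lay above the median of 28 summit reads over all knockout peaks. The 20 were picked by their control values, so this describes the choice. It leaves the local background aside, and how much the depth contributed to their absence was not tested.

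**Figure D2:**
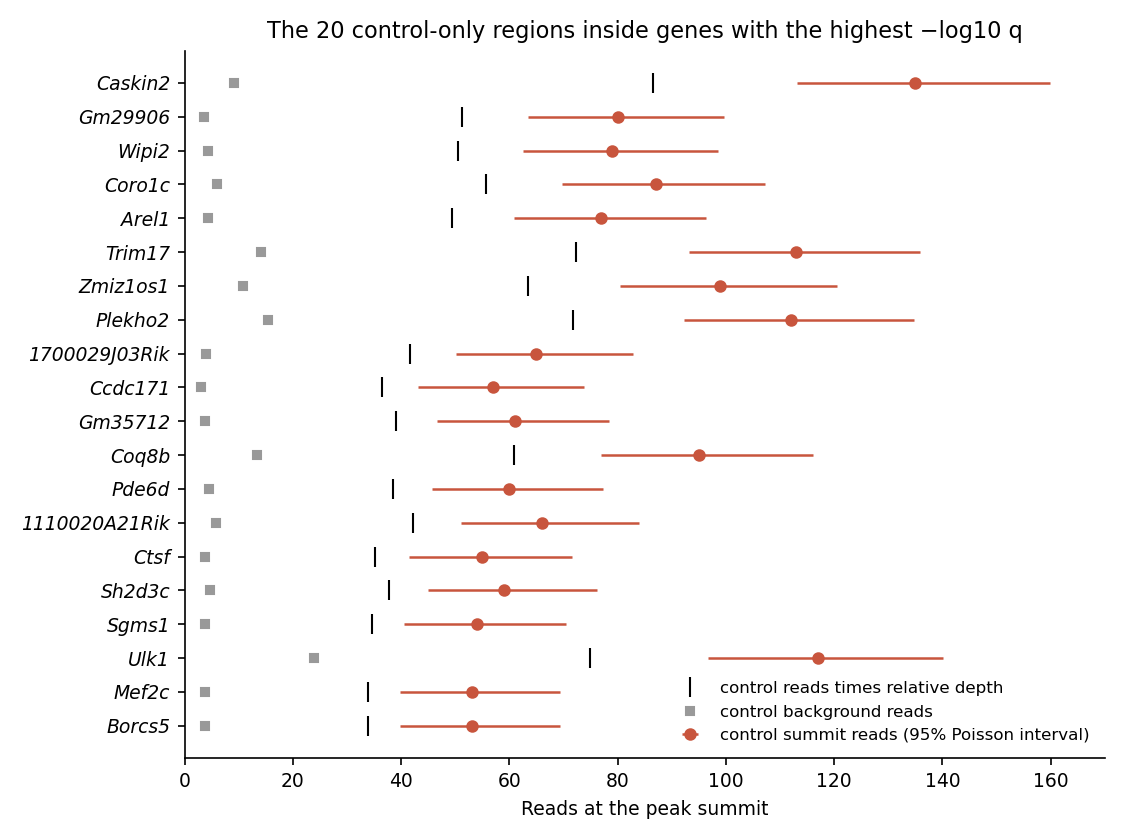
Summit reads (horizontal) of the 20 control-only regions inside genes with the highest −log10 q, by host gene, with exact 95% Poisson intervals, the local background and the control reads multiplied by the relative depth of 0.640. Reads run from 53 at Mef2c and Borcs5 to 135 at Caskin2, and the background is highest at Ulk1, 23.9.

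The widest control-only regions were not strong ones. Gab2, a docking protein of cytokine and growth factor receptors, held the widest, 2044 bp with 13 summit reads, followed by Tatdn1 with 1770 bp and 28 reads. Axl, a receptor tyrosine kinase of the family that clears dying cells, held 1682 bp with 23 reads, Mical3, a monooxygenase that acts on the actin cytoskeleton and overlaps Gm43915 there, 1645 bp with 13 reads, and Mtr, the methionine synthase, 1622 bp with 13 reads. No shared region lay inside Gab2, Tatdn1, Axl or Mtr, while Mical3 held 5.

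At the distance threshold, the nearest regions inside it were at 1006 bp from a gene end (Gm41980, 10 reads), 1009 bp (Osbpl5, 16 reads) and 1011 bp (Dnah1, which overlaps Gm35823, 12 reads), and the nearest outside it at 995 bp (Gm52677, 18 reads), 993 bp (Nol4l, 70 reads) and 991 bp (4933432I09Rik, 14 reads). At the overlap threshold, a knockout peak lay 1 bp from a region in Acsl1 (14 control and 8 knockout reads), 6 bp from one in Nxpe5 (11 and 8) and 12 bp from one in Lair1 (13 and 8). Regions counted as shared by the fewest overlapping bases were in Snd1 (3 bp, 13 and 11 reads), Fbxw7 (7 bp, 12 and 9) and Pag1 (17 bp, 25 and 26). Few regions were near that threshold: 51 lay within 500 bp and 138 (3.85%, 3.24 to 4.53) within 1000 bp of a knockout peak, and the median distance to one was 13340 bp.

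The 3587 regions fell in 2933 genes, of which 2483 were protein-coding. Over all 20665 autosomal coding genes this is 12%. Coding genes held 3259 of the regions (90.9%), against 91.6% of shared and 90.3% of knockout-only regions inside genes, and 316 lay in long noncoding RNA genes alone. The hosts were long, with a median of 68.7 kb in coding hosts against 17.5 kb over all autosomal coding genes, and coding genes with a knockout-only region inside had a like median of 70.3 kb. Of 2313 coding genes of at least 100 kb, 896 (38.7%, 36.7 to 40.8) held a control-only region. A single one was held by 2327 genes, while 434 held 2, 108 held 3, 46 held 4 and 12 held 5. Of 172 genes with 3 or more, 82 held no knockout-only region and 31 no shared region. Over all 2933 hosts, 1680 (57.3%) held no shared region, and the like count for knockout-only regions is not given here. Genes with 3 or more knockout-only regions numbered 36. The 172 and the 36 cannot be compared directly, since they come from 3587 control-only and 1942 knockout-only regions.

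Maml3, which encodes a coactivator of Notch receptors, held the most control-only regions, 8, with 13, 12, 19, 9, 12, 47, 14 and 9 summit reads along 418 kb. They lay among 8 shared regions, whose median log2 scaled ratio was 0.10, and no knockout-only region lay inside the gene. The region of 47 reads is at chr3:51998369-51999099, 106.6 kb from the start. Both the nearest shared region and the nearest knockout peak were 875 bp from it. At the gene end the shared region had 80 control and 54 knockout reads, a scaled ratio of 1.05 (0.73 to 1.51). At Maml3, 7 of the 8 control-only regions thus had fewer than 20 reads, while each shared region of the gene had at least 16 control reads.

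Sgms1 held 7 control-only, 7 shared and 3 knockout-only regions, the control-only ones with 24, 54, 12, 27, 11, 8 and 21 reads. Psd3, an exchange factor for the ARF6 GTPase, held 6 (16, 14, 36, 12, 10 and 16 reads) with 1 shared and no knockout-only region. Pde4d, a cyclic AMP phosphodiesterase, held 6 (10, 16, 32, 24, 8 and 9 reads), with 7 shared and 4 knockout-only. In Pde4d all 6 lay between 893.7 and 1237.4 kb from the start of a gene of 1302 kb. Most of the gene's shared and knockout-only regions were also far from the start, between 76.1% and 97.4% of its length. The others were at 44.4% and 49.5%. Xpr1, the phosphate exporter, held 6 of 10, 15, 21, 11, 26 and 14 reads, and Msi2, an RNA-binding protein of blood stem cells, 6 of 20, 10, 14, 14, 19 and 10 reads. The 4 shared regions inside Msi2 had 41, 9, 30 and 27 control reads and 13, 9, 13 and 7 knockout reads, a median log2 scaled ratio of -0.79, while at its gene end 136 and 71 reads gave a scaled ratio of 0.82 (0.60 to 1.09).

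Of the 12 genes with 5 each, the 6 with the largest summed summit reads are given here; Ank1 and Jak1, which also held 5, are described with their lists. Zbtb46, a transcription factor of classical dendritic cells, held regions of 13, 33, 21, 99 and 12 reads, and its single shared region had 312 control and 127 knockout reads. The region of 99 reads was 391 bp wide, stood over a background of 27.1 and lay 2391 bp from the shared region. Rere, a transcriptional corepressor, held regions of 18, 36, 51, 15 and 28 reads, and Chst11, a chondroitin sulfotransferase, regions of 47, 36, 16, 7 and 12. Cdk6, the kinase of the early cell cycle that is prominent in blood progenitors, held regions of 33, 17, 17, 24 and 18 reads, and 183 and 91 reads at its gene end gave a scaled ratio of 0.78 (0.60 to 1.004). Zfhx3, a large homeobox factor, held regions of 25, 17, 23, 27 and 14 reads. Vit, which encodes an extracellular matrix protein, held regions of 27, 10, 9, 41 and 19 reads with neither a shared nor a knockout-only region inside and no region at its ends. Of the 12 genes described so far by their number of regions, Vit was the one whose listed regions were all control-only.

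**Figure D3:**
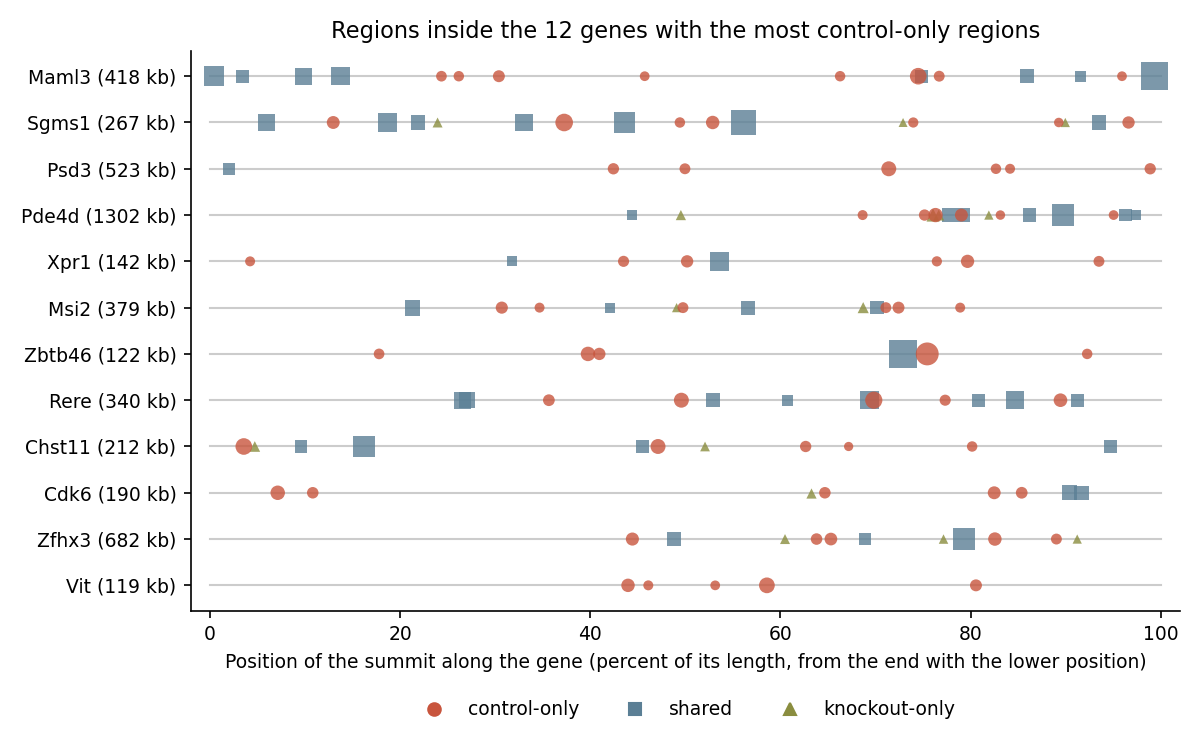
Position of each region's summit along the 12 genes with the most control-only regions, ties at 5 settled by summed summit reads (horizontal, percent of gene length from the end with the lower coordinate), for control-only, shared and knockout-only regions, with marker area growing with summit reads. Maml3 holds 8 control-only among 8 shared regions, and Vit holds 5 control-only regions alone.

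Along coding genes of known strand, the summits of 2597 control-only regions were spread evenly, with 24.3%, 25.8%, 24.6% and 25.3% in successive stretches of 25% of the gene from the start. Shared regions leaned to the start, with 29.2%, 28.4%, 23.1% and 19.3% of 4047, and knockout-only regions had 23.6%, 28.1%, 23.6% and 24.7% of 1363. The control-only share of regions inside genes ran from 27.2% (22.9 to 31.9) on chromosome 19 to 38.7% (34.4 to 43.1) on chromosome 3.

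Gene lists for blood cell types, chromatin complexes and signalling pathways were read against the 32.5% of all regions inside genes that were control-only. The interval of the megakaryocyte and mast cell list alone left out that value, with 2 of 25 regions (8%, 0.984 to 26.0), in Hdc, the histidine decarboxylase of mast cells (12 reads), and Fli1, an ETS factor of megakaryocytes (10 reads). With 17 lists and no replicate this is a description of the list and no more. Median log2 scaled ratios at the shared gene ends of the lists, set beside 0.02 over all genes, were -0.23 for erythroid (26 ends), -0.05 for membrane skeleton and adhesion (26), -0.02 for p53 and cell cycle (29) and -0.01 for stem and progenitor genes (17). The other lists were above 0, up to 0.36 for TGF-beta and BMP (24 ends), 0.40 for B lymphoid (7) and 0.47 for T and NK genes (7). Inside genes, with no control-only region within 10 kb, the median over shared regions fell as control reads rose. It was 0.51 at 11 to 14 reads and -0.22 at 40 and over. The lists were written with earlier results of these data known and were not matched for control reads. How far control reads shape their medians was not tested. A relative depth of 0.597, from the median summit reads of shared regions, adds 0.10 to every log2 ratio, and one of 0.671, from the 1000 strongest shared gene ends, changes it by -0.07, so the sign of a median as near to 0 as that depends on the depth chosen.

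Stem and progenitor genes had 29 control-only of 93 regions inside (31.2%, 21.98 to 41.6), in 14 of 35 genes. Msi2 led with 6, then Etv6, an ETS repressor needed for blood stem cells, with 4 (11, 9, 16 and 15 reads), and Meis1, a homeobox cofactor of HOX proteins, with 3 (9, 14 and 9 reads). Runx1, the master factor of definitive blood formation, held 2 (9 and 14 reads) beside 7 shared regions of 19 to 171 control reads. At Kit the single control-only region had 9 reads, while its 2 shared regions had 67 and 69 control reads and 29 and 18 knockout reads. The strong sites of Runx1 and Kit were thus listed in both libraries.

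Erythroid genes had 16 of 59 (27.1%, 16.4 to 40.3), in 8 of 42 genes. Ank1, which encodes the erythrocyte ankyrin, held 5 with 16, 16, 16, 17 and 35 reads, the last at chr8:23144233-23144772, where it overlaps Gm15816 too. Its 3 shared regions had 161, 156 and 49 control and 90, 95 and 23 knockout reads. Bcl2l1, which encodes the survival protein BCL-XL, held 4 with 20, 22, 11 and 37 reads, and Sox6, a repressor of embryonic globin, 2 with 13 and 17. The median log2 scaled ratio was -0.20 over the 34 shared regions inside erythroid genes and -0.23 over the 26 at their ends. Of the 26 ends, 18 were below 0, beside 4736 of 9861 over all genes.

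Genes of other lineages held few regions of any kind, and the intervals of their shares were wide. B lymphoid genes had the highest share of the 17 lists, 10 of 24 (41.7%, 22.1 to 63.4), led by Pou2f1, the OCT1 factor, with 3 (10, 26 and 10 reads), Bach2, a repressor of lymphocyte differentiation, with 2 (14 and 13), and Ikzf1, the IKAROS factor, with 1 of 34 reads. The first region given for Pou2f1 overlaps Cd247 too. Granulocyte and monocyte genes had 2 of 10 (20%, 2.52 to 55.6), both in Inpp5d, the SHIP1 phosphatase (35 and 20 reads). T and NK genes had 3 of 17 (17.6%, 3.799 to 43.4), in Tbx21 (18 reads), Satb1 (12) and Tox (9). Macrophage genes had 1 of 4 (Axl) and hepatocyte genes 1 of 4 (Trf, transferrin, 10 reads). Endothelial and stromal genes had 2 of 7 (Flt1 with 21 and Tek with 13 reads). The nearest knockout peak lay only 20 bp from the Satb1 region and 271 bp from the Trf region. Neuronal genes, a list that is not of blood, had 12 of 31 (38.7%, 21.9 to 57.8), led by Cacna1a, a calcium channel, with 26, 16 and 32 reads, and Syt1, a synaptic vesicle calcium sensor, with 32, 10 and 13.

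BAF complex subunits had 15 of 53 (28.3%, 16.8 to 42.4), in 11 of 31 genes. Arid1b held 4 (16, 15, 9 and 15 reads), Arid2, a subunit of the polybromo-associated complex, 2 (17 and 24), and Arid1a 1. Arid1a and Arid1b are the DNA-binding subunits of the canonical complex. The Arid1a region, at chr4:133751560-133751989, had 81 reads over a background of 22.6, and 235 and 120 reads at its gene end gave a scaled ratio of 0.80 (0.63 to 0.998). At the end of Arid2 the ratio was 0.57 (0.46 to 0.72), from 291 and 107 reads, and at that of Smarca4, the catalytic subunit BRG1, it was 1.25 (1.04 to 1.49), from 283 and 226. Over the 28 shared gene ends of the list the median log2 scaled ratio was 0.07. Of the 28, 17 were above 0, beside 5125 of 9861 over all genes, so these ends did not share a direction. Bicra, which encodes the GLTSCR1 subunit of the non-canonical complex that holds BRD9, and its paralogue Bicral held 1 each, with 9 and 11 reads. Other chromatin regulators had 23 of 94 (24.5%, 16.2 to 34.4). The acetyltransferase Kat6b held 3 (7, 7 and 16 reads) and Jarid2, a cofactor of Polycomb complex 2, also 3 (11, 10 and 11). Knockout peaks lay 264 bp from a Kat6b region of 7 reads and 843 bp from the Arid1b region of 16 reads.

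TGF-beta and BMP genes had 16 of 42 (38.1%, 23.6 to 54.4), in 9 of 29 genes. Smad3, a transducer of TGF-beta receptors, held 4 with 9, 13, 16 and 37 reads, the strongest at chr9:63705011-63705589 with a fold of 8.59. Its shared regions had 36, 48 and 52 control and 23, 33 and 34 knockout reads, and the gene end 264 and 134, a scaled ratio of 0.79 (0.64 to 0.98). The 24 shared gene ends of the list had a median log2 scaled ratio of 0.36. Of these, 18 were above 0, beside 5125 of 9861 over all genes. Control reads at the ends of the list differed, with 13 at Acvr1 and 84 at Smad7 beside the 264 at Smad3. A difference between Smad3 and its list was not tested. Tgfbr3, the coreceptor betaglycan, held 4 (14, 9, 20 and 9 reads) and Acvr1, a BMP type I receptor, 2 (23 and 14). Notch and Wnt genes had 19 of 48 (39.6%, 25.8 to 54.7), in 8 of 36 genes, with 8 of the 19 in Maml3. Notch2 held 3 with 17, 17 and 40 reads, and Lrp5, a Wnt coreceptor, 2 with 19 and 14.

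Cytokine receptor and kinase genes had 36 of 126 (28.6%, 20.9 to 37.3), in 21 of 57 genes. Jak1, a kinase of many cytokine receptors, held 5 (15, 10, 9, 25 and 11 reads), and the protein kinase C genes Prkca and Prkce held 4 (9, 21, 24 and 20) and 3 (10, 31 and 15). Membrane skeleton and adhesion genes had 26 of 95 (27.4%, 18.7 to 37.5), in 18 of 47 genes. After Ank1 came Ank2, another ankyrin, with 3 of 10 to 21 reads and Itga9, an integrin, with 2 of 10 and 15. Their median log2 scaled ratio over 54 shared regions inside was -0.34, the lowest of the 17 lists, and -0.05 over 26 at gene ends. Like the other lists, that list was written with results of these libraries known, so the direction of none of the 17 is independent evidence.

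Cell cycle and p53 genes had 10 of 33 (30.3%, 15.6 to 48.7), in 6 of 34 genes, and 2 knockout-only. Cdk6 held 5 of the 10. Ccna2, the cyclin of S phase, held 1 of 110 reads at chr3:36569811-36570273 over a background of 35.1, and Ccne1, the cyclin of S phase entry, 1 of 108 at chr7:38105446-38105964 over 26.8. At the gene end of Ccna2, 511 and 269 reads gave a scaled ratio of 0.82 (0.71 to 0.95), and that of Ccne1 248 and 180, a ratio of 1.13 (0.93 to 1.38). Both cyclin genes are short, 8.17 and 9.51 kb, and the regions lay 2765 and 1526 bp from a gene end. The nearest knockout peaks were 1254 and 1261 bp from these regions, and the nearest shared regions 1198 and 1056 bp.

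**Figure D4:**
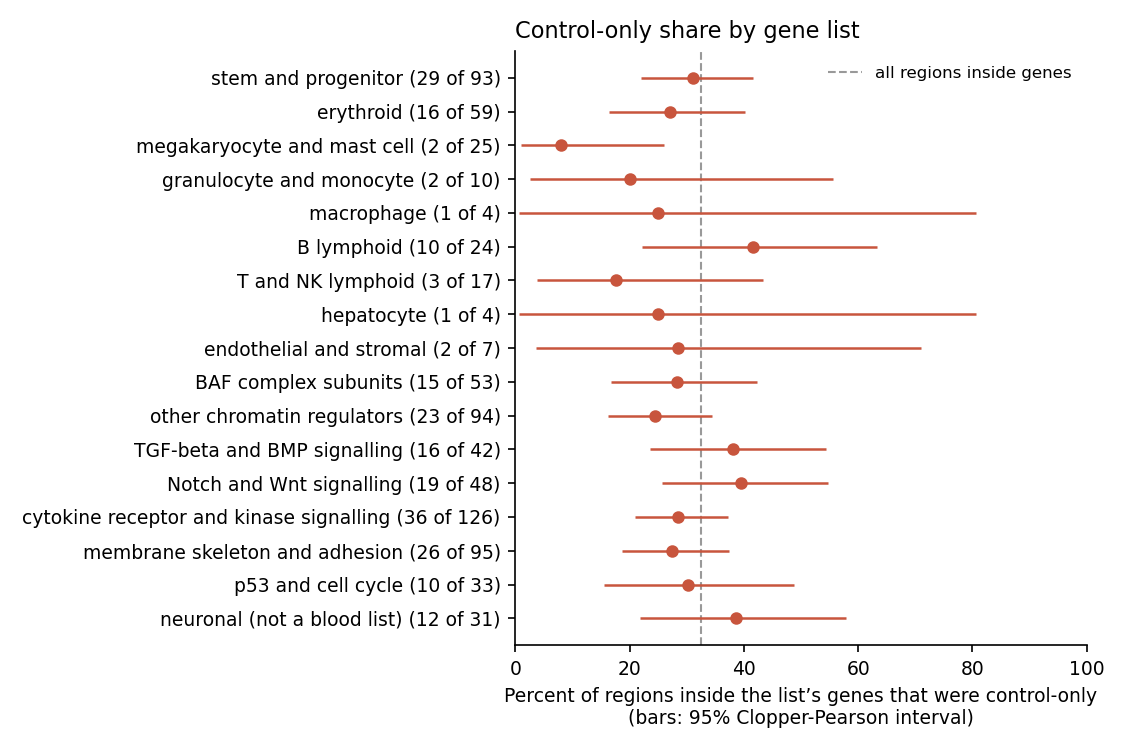
Percent of the regions inside each list's genes that were control-only (horizontal), with 95% Clopper-Pearson intervals, and the 32.5% of all regions inside genes as a dashed line. The interval of the megakaryocyte and mast cell list lies below the line, and those of the other 16 lists cross it.

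Regions that did not choose the hosts were then measured in both libraries. Of 2483 coding hosts, 1599 (64.4%, 62.5 to 66.3) had a shared region at a gene end, against 54.9% (53.1 to 56.7) of coding genes with another region inside and 48.8% of all coding genes. The 1628 shared gene-end regions of hosts had a median log2 scaled ratio of 0.01 (-0.01 to 0.03, SD 0.37 over regions), and the 9861 of all genes 0.02 (0.01 to 0.02). Of the host regions 8 (0.491%) had a ratio of 0.5 or less and 18 (1.11%) of 2 or more, where the background was 0.882% and 1.34%. Gene ends of host genes thus had a median ratio like that of other genes.

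Shared regions inside host genes had a median log2 scaled ratio of -0.09 (-0.12 to -0.06, n = 2269), and those inside other genes -0.05 (-0.07 to -0.03, n = 3251), with overlapping intervals. Ratios of 0.5 or less were found in 84 (3.70%) and of 2 or more in 69 (3.04%) of those in hosts, against backgrounds of 3.55% and 3.28%. With a control-only region within 10 kb the median was -0.09 (-0.14 to -0.04, n = 735). With none so near it was -0.06 (-0.07 to -0.04, n = 4785), and these intervals overlapped too. Both medians inside genes rest on the relative depth, and with a depth from the median summit reads of shared regions, 0.597, the median inside hosts was 0.0078.

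**Figure D5:**
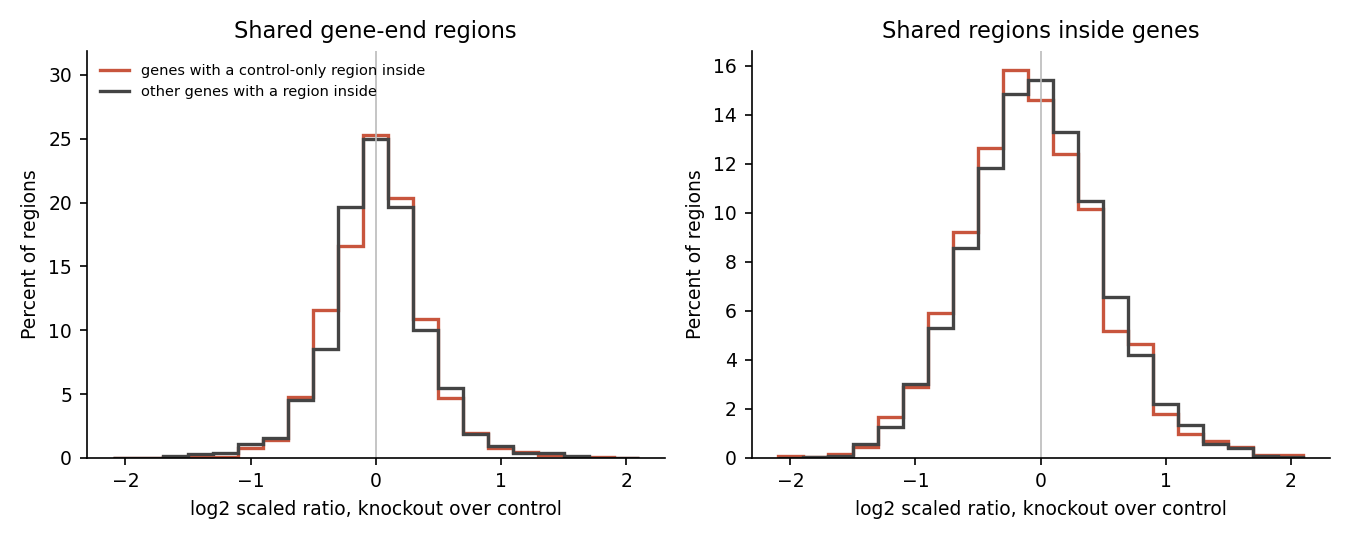
Percent of shared regions (vertical) by log2 scaled ratio of knockout over control summit reads (horizontal), at gene ends (left) and inside genes (right), for genes with a control-only region inside and for other genes with a region inside. The distributions nearly coincide, with medians of 0.01 and 0.01 at gene ends and -0.09 and -0.05 inside genes.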

How the data were processed

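The data were the ATAC-seq peaks of a control and a Brd9 knockout library. The tools MACS2 2.2.7.1, deepTools 3.5.1, Picard 2.26.2, Bowtie2 2.4.4 and Trimmomatic 0.39 and the build mm10 are listed, per the submitters' processing notes; their roles, settings, read shifting, duplicate handling and blacklist are not given in the sources used here. Peaks were deposited as a separate list for each sample. The score column as deposited equals, to within 1, the −log10 q-value multiplied by 10, and it was left aside. The authors' fold is a ratio of summit pileup to local background after adding a pseudocount of 1 to both. For each peak, −log10 of the p-value and of the q-value are the authors' own and rank peaks within a list; the lowest −log10 q was 1.308 in the control and 1.32 in the knockout list.

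Summit reads were solved from the fold and −log10 p as a whole number, found for 100% of peaks with a relative misfit of at most 7.31e-06; tested on simulated peaks, 2000 of 2000 control and 1999 of 1999 knockout numbers were recovered. They count reads over the summit after the caller's extension, not all reads of a peak. The scaled ratio divides knockout by control summit reads and then by the relative depth, the ratio of the lowest backgrounds (0.971 and 1.52 reads). Ratios have exact conditional binomial intervals and medians order-statistic intervals. Gene spans, names and promoter sequences came from RefSeq tables of GRCm38.p6. Python 3.11.15, NumPy 2.4.6, pandas 2.3.3, SciPy 1.17.1 and matplotlib 3.10.9 were used.

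Genes were named by rule: the 20 regions with the highest −log10 q, the 12 genes with most regions (ties by summed summit reads), up to 3 hosts of each list with most regions, the 5 widest regions and 3 regions on each side of each threshold; further genes named within lists, and those of the printed sequences, were chosen after their values were seen. One gene that the rule selects is not reported here. The members and lists were chosen with earlier results of these data known. Alternatives changed the overlap, the q minimum, the number of peaks, the gene-end distance, the gene types and the depth.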

Additional observations from a re-analysis of the deposited data

How the results depend on the processing

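Of 60 alternative values, 36 stayed within 1.5 times the main count or within the main interval, and the 24 others follow; the cause was not tested. The number of regions, 3587, was 2225 with a −log10 q of at least 5 asked of the control list alone, fewer than the 2336 knockout-only regions inside genes that this leaves, where the main lists had 1942, and 532 with the 11174 top peaks of each list, beside 376 knockout-only regions. The number with at least 40 reads, 188, was 487 with equal top peaks. The number within 1000 bp of a knockout peak, 138, was 586 when 50% of a control peak had to be covered, 80 with gaps of 500 bp merged, 66 and 80 with a −log10 q of at least 5 in both lists or the control list, and 7 with equal top peaks. The share of control-only regions inside genes, 53.8%, was 52.4% with 50% coverage, 47.2% with equal top peaks, 57.1% and 46.5% with gene ends at 500 and 2500 bp, and 51.0% with coding genes only. The control-only share inside genes, 32.5%, was 36.5% with 50% coverage, 22.9% with the q minimum in the control list and 19.1% with equal top peaks. The median log2 ratio at gene ends of hosts, 0.01, was -0.0064 with that minimum, -0.0473 with equal top peaks, and 0.11 and -0.0566 with depths of 0.597 (medians of shared regions) and 0.671 (the 1000 strongest gene ends); inside hosts, -0.09 became -0.14, -0.18, 0.0078 and -0.16. Signs of these medians thus depend on the depth and the peak set chosen.

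No paired analysis was possible because each group has 1 library and the replicate numbers differ, and leaving out a library leaves no comparison. At the scaled level, 51.8% of the regions lay below the 10th percentile of knockout summit reads, and 15.1% below the lowest number in a knockout peak. This is not a count of regions lost to depth, which was not tested.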
